A study of Mus musculus with 6 samples.

Results

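Genes that let microglia recognise and take up dying cells through exposed phosphatidylserine were examined in hippocampal microglia: the TAM receptors Mertk and Axl, their ligands Gas6 and Pros1, the bridging protein Mfge8, the scramblase Xkr8, the receptor Havcr2 and the adaptor Gulp1. The genes were chosen by name. Of the 8 listed, 7 were analysed among the 11881 genes of the count table, and Gulp1 was not analysed here. The microglia came from male mice of postnatal days 17 to 21 and had been sorted as CD11b-positive, CD45-low cells. The study compared 3 mice labelled WT with 3 mice labelled Mll5+/-, which are heterozygous for Mll5 (now Kmt2e), with 1 RNA-seq library per mouse. The allele, its promoter or deleted part and the strain are not stated by the labels, and no treatment is named for either group.

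Cells that die by apoptosis move phosphatidylserine from the inner to the outer leaflet of the plasma membrane, where it serves as an "eat me" signal. Phagocytes read it directly, through receptors such as TIM-3, the product of Havcr2, or through soluble bridging proteins. GAS6 and protein S, the product of Pros1, bind the lipid through vitamin K-dependent carboxylated domains and activate the receptor tyrosine kinases TYRO3, AXL and MERTK, while MFG-E8 links the lipid to integrins. In the brain, MERTK is a receptor by which microglia and astrocytes clear apoptotic cells and synaptic material, and AXL is known as a receptor that phagocytes raise in inflammation.

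The regions before the start sites are shown for 4 members, since these pair an abundant receptor RNA and a scarce RNA with both few and several matches to a simple motif. The sequences are from RefSeq on GRCm38.p6, a different build from the mm39 of the count table. Each covers 250 bases before the start, 5′ to 3′ on the gene's strand. Capitals mark the GC box GGGCGG, a short motif that transcription factors of the Sp family bind, or its reverse complement CCGCCC.
Mertk, chr2:128698665-128698914, plus strand: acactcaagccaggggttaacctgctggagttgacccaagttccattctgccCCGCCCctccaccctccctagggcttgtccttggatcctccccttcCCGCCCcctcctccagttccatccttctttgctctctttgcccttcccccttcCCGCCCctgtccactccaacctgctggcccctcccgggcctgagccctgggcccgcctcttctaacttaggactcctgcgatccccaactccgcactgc
Havcr2, chr11:46454681-46454930, plus strand: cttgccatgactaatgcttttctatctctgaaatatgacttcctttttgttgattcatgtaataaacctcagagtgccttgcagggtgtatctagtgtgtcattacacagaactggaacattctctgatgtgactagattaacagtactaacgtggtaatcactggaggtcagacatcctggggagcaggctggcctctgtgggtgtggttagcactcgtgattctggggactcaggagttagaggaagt
Axl, chr7:25788734-25788983, minus strand: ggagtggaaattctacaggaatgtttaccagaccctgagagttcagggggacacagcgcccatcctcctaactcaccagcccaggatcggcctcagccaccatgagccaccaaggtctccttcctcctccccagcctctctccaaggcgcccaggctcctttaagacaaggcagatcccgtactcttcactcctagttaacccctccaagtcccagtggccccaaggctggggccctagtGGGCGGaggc
Mfge8, chr7:79149061-79149310, minus strand: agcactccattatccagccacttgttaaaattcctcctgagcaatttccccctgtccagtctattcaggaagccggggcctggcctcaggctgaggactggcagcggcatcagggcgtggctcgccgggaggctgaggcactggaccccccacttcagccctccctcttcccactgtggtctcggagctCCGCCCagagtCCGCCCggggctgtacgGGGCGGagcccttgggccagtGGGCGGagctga
The Mertk window held 3 GC boxes and the Havcr2 window 0, although both genes had at least 155 CPM (counts scaled to a common library size) in every library, while the Axl window held 1 and the Mfge8 window 4 although both genes had under 10 CPM. The windows of Gas6 and Pros1 held 4 and 5 (overlapping matches counted), and no window was matched for Xkr8. At least 1 GC box was present in 32.7% of the 32851 RefSeq windows of the same length. These counts describe the windows, and the number of boxes did not order the members by level.

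Each of the 6 libraries held between 21075570 and 29730400 counts, at which 3 counts, the most that a count of 0 allows, correspond to between 0.104 and 0.142 CPM. The scaling of CPM is by the TMM method, which corrects for differences in composition. Such limits cover counting error only. The targeted gene Kmt2e had 480, 378 and 688 CPM in the mice labelled WT and 648, 298 and 513 CPM in the mice labelled Mll5+/-, so its ranges overlapped, and the genotypes are named as labelled throughout. All 10 microglial markers on a fixed list were present. They summed to between 10110 and 14280 CPM in the mice labelled WT and to between 7715 and 8919 CPM in the mice labelled Mll5+/- without overlap. The markers did not all differ alike. Taken singly, P2ry12 and Gpr34 were lower in the mice labelled Mll5+/- without overlap and Tmem119 was higher without overlap. The levels of 9.32% of all tested genes did not overlap. Log2 fold changes were negative for 8 of the 10 markers and positive for 2. P2ry12, a purinergic receptor gene and the marker of highest mean level, had 4269, 1366 and 5499 CPM and then 1115, 1232 and 1087 CPM, so that WT replicate 2 lay near the mice labelled Mll5+/-. The summed markers of border-associated macrophages, another phagocyte that can use TAM receptors, did not overlap either. They were between 265 and 330 CPM (WT label) and between 369 and 692 CPM (Mll5+/- label), of which Stab1 and Mrc1 made up most. Of the 10 markers listed for these macrophages, 7 were measured, and Cd163 and Lyve1 were at 0 in 3 and 2 of the 6 libraries. Astrocyte markers, 11 of 14 measured, summed to between 404 and 579 CPM and between 269 and 561 CPM, of which Slc1a3 made up most. Of the 11 tested singly, 3 were lower in the mice labelled Mll5+/- without overlap and 0 were higher, beside the 9.32% of all tested genes. These 3 were Plpp3, Clu, which was at 0 in 2 libraries, and Gja1. Gja1 had 22.7, 23.2 and 28.6 CPM (WT label) and 3.51, 6.71 and 1.75 CPM (Mll5+/- label). Oligodendrocyte lineage markers, 6 of 12 measured, summed to between 140 and 185 CPM (WT label) and between 98.2 and 135 CPM (Mll5+/- label), without overlap. Taken singly, 0 of the 5 tested border-associated macrophage markers and 0 of the 5 tested oligodendrocyte lineage markers had levels without overlap. Mll5+/- replicate 3 stood at the end of several of these measures. It had the fewest counts (21075570) and the fewest genes detected (10487, against 10696 to 11053 in the others). Its sums of microglial (7715 CPM) and oligodendrocyte lineage markers (98.2 CPM) were the lowest. Its sums of border-associated macrophage (692 CPM), monocyte and neutrophil (278 CPM) and neuron markers (93.1 CPM) were the highest. Of the 278 CPM, Csf3r alone gave 268. The other monocyte and neutrophil markers did not follow in this library: Ccr2 was at 9.78 CPM, Plac8 at 0.331 CPM, its lowest value, and S100a9, Camp and Ngp at 0. The part of these measures in the values below was not tested. In sorted bulk samples, fewer cells of a type and less RNA per cell cannot be told apart.

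None of the 7 genes passed the threshold between the genotypes in edgeR's quasi-likelihood test, in which all 7 cleared the filter on low counts. The test called 0 of 7 members and 0 of all 10832 tested genes (0%) at an adjusted p of 0.05, with a smallest adjusted p of 0.9995. At an unadjusted p of 0.05, 0 of 7 members passed, against 312 genes (2.88%) overall. DESeq2 called 0 of 7 members and 18 genes (0.166%), and limma-voom 0 and 0. At an unadjusted p of 0.05, DESeq2 and limma-voom each had 0 members, with 420 and 459 genes overall. Levels of all 7 members overlapped between the genotypes, while 9.32% of tested genes had levels that did not. The members had positive log2 fold changes in 4 cases and negative ones in 3, with a median of 0.18, beside a median of 0.02 over all tested genes.

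Mertk, the receptor tyrosine kinase by which macrophages bind GAS6- and protein S-coated cells, was the member with the highest level and the steadiest one. It lies on chromosome 2 from 128540876 to 128644814 (mm39). The mice labelled WT held 443, 455 and 537 CPM, from 10586, 11826 and 15473 counts. The mice labelled Mll5+/- held 438, 455 and 503 CPM, from 11114, 12965 and 10652 counts. The ranges of the genotypes nearly coincided, and the highest library was 1.22 times the lowest. The mean was 478 ± 51.2 CPM (SD, n = 3) in the mice labelled WT and 466 ± 33.7 CPM (SD, n = 3) in the mice labelled Mll5+/-. The log2 fold change, Mll5+/- minus WT, was -0.04 with an SE of 0.167 (unadjusted p = 0.824 in edgeR). Its 95% interval ran from -0.42 to 0.34, that is from 0.749-fold to 1.27-fold. A loss or gain of Mertk RNA beyond those bounds lies outside the interval, and smaller differences could not be resolved with 3 mice per genotype.

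Axl, the TAM receptor that binds GAS6 most tightly, was low and uneven. It lies on chromosome 7 from 25456698 to 25488130. The mice labelled WT held 203, 19 and 0 counts (8.49, 0.731 and 0 CPM). The mice labelled Mll5+/- held 0, 149 and 167 counts (0, 5.23 and 7.89 CPM). Each genotype thus had 1 library at 0 and at least 1 library above 5 CPM, so the spread within a genotype covered nearly the whole range. A count of 0 allows up to 0.104 CPM in WT replicate 3 and up to 0.118 CPM in Mll5+/- replicate 1. The log2 fold change was 0.51 with an SE of 2.18 (unadjusted p = 0.821 in edgeR), with a 95% interval from -4.44 to 5.46, and it moved to 3.56 without WT replicate 1 and to -0.23 without Mll5+/- replicate 3. At this spread, neither a large loss nor a large gain of Axl could be detected. In the order of the counts above, border-associated macrophage markers summed to 323, 330 and 265 CPM and then to 417, 369 and 692 CPM. Mll5+/- replicate 3, with the highest sum, had 167 Axl counts, below WT replicate 1 alone. WT replicate 3, with the lowest sum, had 0. Mll5+/- replicate 1, with the next highest sum (417 CPM), also had 0. WT replicate 1, with the most Axl counts (203), had a sum of 323 CPM, while WT replicate 2 had 19 counts at 330 CPM. The part of these sums in the Axl level was not tested. TYRO3, the other receptor of the family, was not analysed here.

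**Figure D1:**
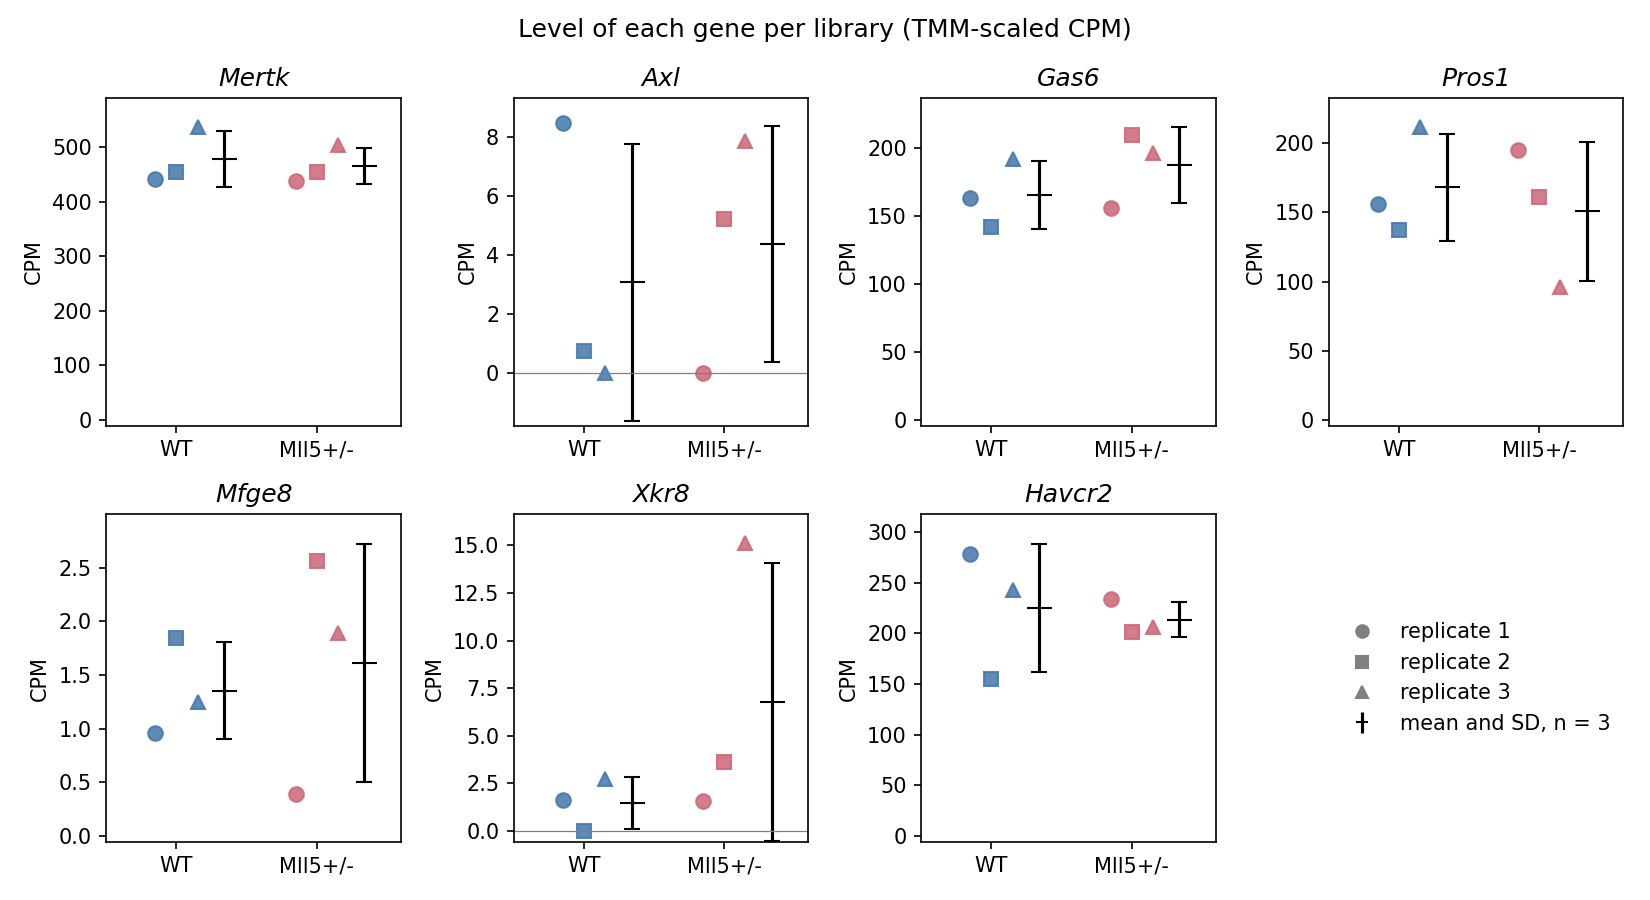
Level of each gene in CPM (y axis, linear, 1 panel per gene) in the mice labelled WT (blue) and Mll5+/- (red); symbols are single libraries and black bars the mean and SD of 3. Mertk stays between 438 and 537 CPM in all 6 libraries, while Axl is at 0 in 1 library of each genotype and the highest Xkr8 value, 15.1 CPM, belongs to 1 mouse labelled Mll5+/-.

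Of the TAM ligands, Gas6 encodes the secreted ligand that activates all 3 receptors. On chromosome 8 from 13515374 to 13544490, it had 164, 142 and 192 CPM in the mice labelled WT and 156, 210 and 197 CPM in the mice labelled Mll5+/-. The highest 2 values were in mice labelled Mll5+/-, and the third library of that genotype lay among the mice labelled WT. The means were 166 ± 25 and 188 ± 27.9 CPM (SD, n = 3 each), and the log2 fold change was 0.18 with an SE of 0.222 and a 95% interval from -0.33 to 0.68 (unadjusted p = 0.446 in edgeR). An increase beyond 1.6-fold lies outside that interval.

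Pros1 encodes protein S, which also acts as an anticoagulant cofactor in blood and activates MERTK and TYRO3. It lies on chromosome 16 from 62674670 to 62749709. The mice labelled WT held 156, 137 and 212 CPM, and the mice labelled Mll5+/- held 195, 161 and 96.1 CPM. The lowest value was in Mll5+/- replicate 3, the library with the marker sums given above, and the other two libraries of that genotype lay within the range of the mice labelled WT. The means were 168 ± 38.8 and 151 ± 50.4 CPM (SD, n = 3 each). The log2 fold change was -0.16 with an SE of 0.305 and a 95% interval from -0.85 to 0.53 (unadjusted p = 0.619 in edgeR), and it was 0.07 without Mll5+/- replicate 3.

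Taken as a ratio within each library, the level of Gas6 relative to that of Pros1 was 1.05, 1.04 and 0.907 in the mice labelled WT and 0.801, 1.30 and 2.05 in the mice labelled Mll5+/-. The mice labelled WT lay close together, and the mice labelled Mll5+/- lay on both sides of them. Mll5+/- replicate 3, with the highest ratio, combined the lowest Pros1 level with a Gas6 level near that of Mll5+/- replicate 2. The ratio was chosen after its values were seen, and it was not tested.

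Mfge8 encodes a secreted protein that binds phosphatidylserine with its C-terminal domains and integrins with an RGD motif. On chromosome 7 from 78783516 to 78798808, it was low in every library, with 23, 48 and 36 counts (0.962, 1.85 and 1.25 CPM) in the mice labelled WT. The mice labelled Mll5+/- held 10, 73 and 40 counts (0.394, 2.56 and 1.89 CPM). Both the lowest and the highest value thus belonged to mice labelled Mll5+/-. The log2 fold change was 0.26 with an SE of 1.56 and a 95% interval from -3.29 to 3.80 (unadjusted p = 0.874 in edgeR), and it was -0.26 without Mll5+/- replicate 2.

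Xkr8 encodes the scramblase that caspases switch on in dying cells to expose phosphatidylserine. Its span on chromosome 4 is 132452208 to 132459857. It had the largest fitted difference of the 7 genes. The mice labelled WT held 39, 0 and 78 counts (1.63, 0 and 2.71 CPM). The mice labelled Mll5+/- held 40, 103 and 320 counts (1.58, 3.62 and 15.1 CPM). One mouse labelled Mll5+/-, replicate 3, was well above the rest, and replicate 1 lay within the range of the mice labelled WT. The log2 fold change of 2.22 with an SE of 1.71 (unadjusted p = 0.227 in edgeR) had a 95% interval from -1.66 to 6.10 and was 0.83 without Mll5+/- replicate 3. With limma-voom it was 3.90 (unadjusted p = 0.0995), the smallest p of the 7 genes there as in edgeR. Mll5+/- replicate 3 is the library that had the fewest counts, the fewest genes detected and the lowest microglial and oligodendrocyte lineage sums. It also had the highest border-associated macrophage, neuron, and monocyte and neutrophil sums, the last of them mostly from Csf3r. The part of these measures in the Xkr8 value was not tested.

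Havcr2 encodes TIM-3, a receptor with an immunoglobulin domain that binds phosphatidylserine and is also an immune checkpoint of T cells. On chromosome 11 from 46345762 to 46372082, it had 278, 155 and 243 CPM in the mice labelled WT, which held both the highest and the lowest value. The mice labelled Mll5+/- lay between these, at 234, 201 and 206 CPM. The means were 225 ± 63.3 and 214 ± 17.5 CPM (SD, n = 3 each). The log2 fold change was -0.08 with an SE of 0.247 and a 95% interval from -0.64 to 0.48 (unadjusted p = 0.763 in edgeR), that is from 0.643-fold to 1.40-fold. Across the libraries, Mertk was between 1.59 and 2.93 times Havcr2 in CPM, and both extremes were in mice labelled WT.

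**Figure D2:**
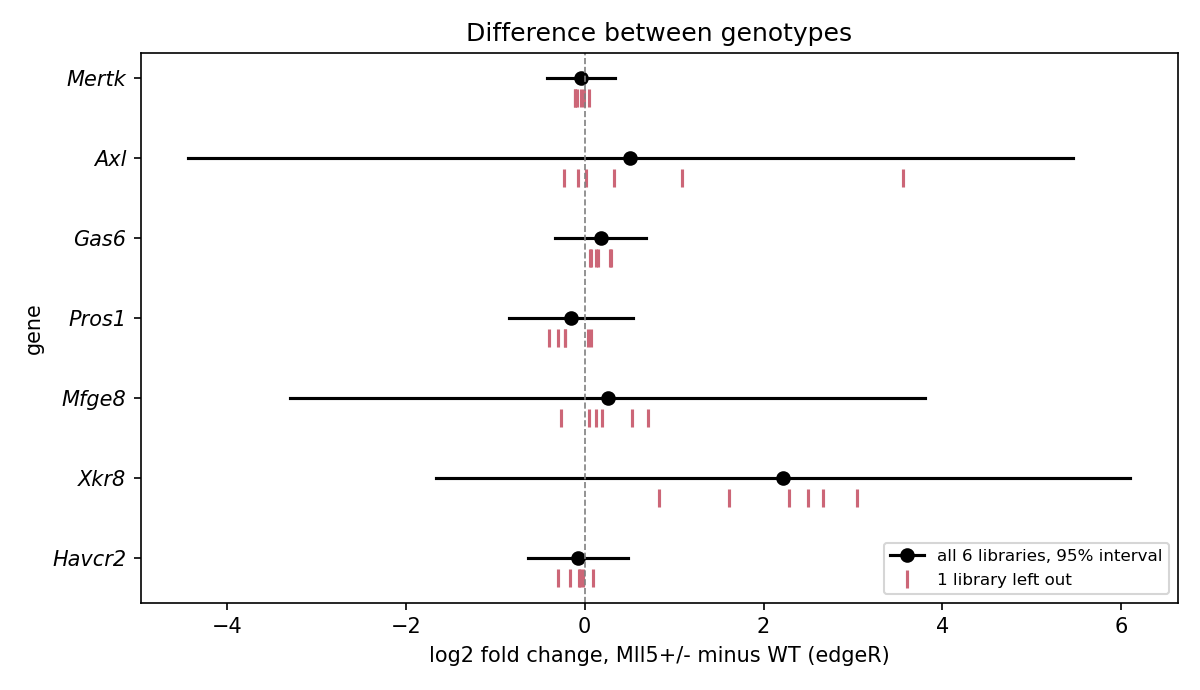
Log2 fold change of each gene, Mll5+/- minus WT (x axis), from edgeR with all 6 libraries (black point, with its 95% interval) and with each library left out in turn (red ticks). All 7 intervals include 0. Those of Axl, Mfge8 and Xkr8 span more than 7 log2 units. Those of Mertk, Gas6, Pros1 and Havcr2 are narrower, the widest of them being that of Pros1 (-0.85 to 0.53).

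The genes fell into an abundant and a scarce set once their levels were divided by length. Per kilobase of exon (union of the exons in GENCODE M21, while the annotation behind the counts is not stated), Mertk had a mean of 109 CPM per kb over the 6 libraries, Havcr2 80.6, Gas6 69.4 and Pros1 39.0. Xkr8, Axl and Mfge8 had means of 0.953, 0.740 and 0.316 CPM per kb. Over all libraries the abundant 4 ranged from 23.5 to 124 CPM per kb, and the scarce 3 from 0 to 3.51 CPM per kb. Neighbours in this order were not all apart: Mertk exceeded Havcr2 in 5 of 6 libraries, Havcr2 exceeded Gas6 in 4 of 6 and Gas6 exceeded Pros1 in 6 of 6. Xkr8 exceeded Axl in 3 of 6 libraries, and Axl exceeded Mfge8 in 3 of 6. With the length of the longest coding transcript in place of the exon union the order was the same, and Mertk exceeded Havcr2 in 6 of 6.

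The members also differed in how evenly they were measured. Over the 6 libraries, Mertk had a coefficient of variation of 8.34%, and 0.812% of all tested genes had a lower one. Among the 608 genes within 2-fold of its level, 6.25% were steadier. Gas6 (15%), Havcr2 (19.1%) and Pros1 (25.9%) followed, and 20.2%, 42.7% and 60.6% of the genes of their levels had a lower value. Of the scarce genes, Mfge8 varied by 52.0%, where 6.69% of the 1391 genes of like level were steadier. Axl (107%) and Xkr8 (135%) varied more than most of theirs, with 74.7% and 91.2% steadier. Axl and Xkr8 were the 2 members at 0 in at least 1 library, as were 16.0% of all tested genes and 37.0% and 33.1% of the genes within 2-fold of their levels.

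**Figure D3:**
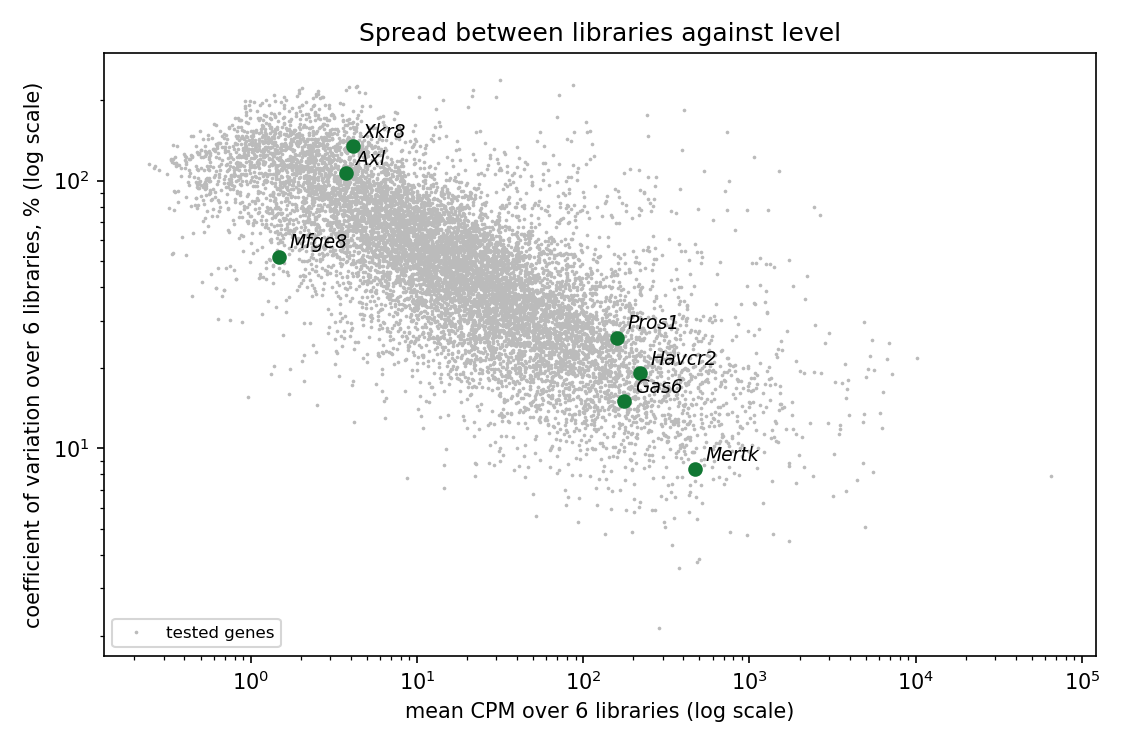
Coefficient of variation over the 6 libraries in percent (y axis, log scale) against mean CPM (x axis, log scale) for all tested genes (grey) and the 7 genes described (green). Mertk, at 8.34%, lies at the lower edge of genes of its level, and Xkr8, at 135%, above most genes of its level.

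The genes whose profile over the 6 libraries was most like that of Mertk, by the root mean square difference of centred log2(CPM + 1) values among 6834 genes with a mean of at least 10 CPM, were Ccny, C5ar2 and Ppp4r3a. Their differences were 0.05 on the log2 scale for each. Ccny, a cyclin gene, had 62.9, 60.7 and 73.0 CPM in the mice labelled WT and 58.0, 60.3 and 72.6 CPM in the mice labelled Mll5+/-. For Xkr8, the member of smallest p, the nearest were Whamm, Crem and Grk2, with larger differences of 0.44, 0.44 and 0.45. Whamm, an actin nucleation factor, had 8.70, 2.19 and 7.29 CPM and then 5.88, 13.5 and 22.5 CPM. It shared with Xkr8 the highest library, Mll5+/- replicate 3, and the lowest, WT replicate 2, which a choice by like profile favours. Both sets of matches describe these 6 libraries only.

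The rest of the clearance pathway was described with 124 genes in 10 lists by role, of which 95 were tested. In edgeR 0 of the 95 passed the adjusted threshold in either direction, and 2 had an unadjusted p under 0.05, as did 2.88% of all tested genes. DESeq2 and limma-voom called 0 of the 95 as well, with 3 and 4 at an unadjusted p under 0.05. Log2 fold changes were positive for 47 and negative for 48, with a median of -0.01. Levels did not overlap between the genotypes for 5 of the 95 (5.26%), against 9.32% of all tested genes. These were Ager and Cd36, at higher levels in the mice labelled Mll5+/-, and Nptn, Cdc42 and Rxrb, at lower levels, and they were named after their values were seen.

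Genes that make the TAM ligands active, by carboxylation in the vitamin K cycle and by propeptide cleavage, had 0 of 4 tested members with an unadjusted p under 0.05 (median log2 fold change -0.19). Furin, a protease that removes propeptides, had 121, 158 and 156 CPM in the mice labelled WT and 185, 7.20 and 2.17 CPM in the mice labelled Mll5+/-. Thus 2 mice labelled Mll5+/- were far below the other 4 and the third was the highest, and with an SE of 1.62 the log2 fold change was -1.16. Vkorc1l1, a vitamin K epoxide reductase, had 20.9 ± 3.15 and 17.8 ± 4.86 CPM (SD, n = 3 each, WT label first). Among genes of receptor shedding, which releases soluble MERTK and AXL, 0 of 6 had an unadjusted p under 0.05 (median -0.17). Adam10 had 3429 ± 339 and 3062 ± 158 CPM and Adam17, the main MERTK sheddase, had 731 ± 138 and 650 ± 35.2 CPM (SD, n = 3 each).

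Genes that move phosphatidylserine across the membrane, with the caspases that switch them, had 0 of 14 under an unadjusted p of 0.05 (median -0.11). Atp8a1, a flippase that keeps the lipid inside, had 1009, 423 and 421 CPM in the mice labelled WT and 1220, 52.4 and 501 CPM in the mice labelled Mll5+/-, so its libraries spread widely within both genotypes. Nptn, an immunoglobulin-family partner of XKR8, had 263, 230 and 232 CPM in the mice labelled WT and 188, 210 and 145 CPM in the mice labelled Mll5+/-. Its levels did not overlap, but the difference did not pass (log2 fold change -0.41, with an SE of 0.211 and an unadjusted p = 0.0821 in edgeR).

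Among other phosphatidylserine receptors and bridges, 0 of 14 had an unadjusted p under 0.05, with 10 positive and 4 negative log2 fold changes (median 0.20). Calr, an "eat me" protein, had 500 ± 153 and 507 ± 68.7 CPM (SD, n = 3 each). Stab1, a scavenger receptor that binds phosphatidylserine and is also counted among the border macrophage markers, had 218, 245 and 139 CPM in the mice labelled WT and 331, 162 and 489 CPM in the mice labelled Mll5+/-. Ager, which encodes the receptor RAGE, had 9.41, 3.39 and 8.60 CPM and then 12.9, 21.3 and 17.2 CPM (edgeR unadjusted p = 0.0698). Cd36, a scavenger receptor, had 0, 0.654 and 0.451 CPM and then 1.97, 5.93 and 5.25 CPM (edgeR unadjusted p = 0.0814).

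The 2 pathway genes with an unadjusted p under 0.05 were both GTPases of the engulfment machinery, and they differed in opposite directions among 17 tested adaptors and GTPases (median 0.07). Rac1, which drives the actin cup around a target, had 948, 1106 and 823 CPM in the mice labelled WT and 1539, 2099 and 982 CPM in the mice labelled Mll5+/-. Its ranges overlapped through the third of these libraries (edgeR unadjusted p = 0.0291). Cdc42 had 402, 411 and 444 CPM and then 316, 321 and 247 CPM, with no overlap (edgeR unadjusted p = 0.0212). Neither passed the adjustment over all genes.

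Downstream of the receptors, the lists held 0 genes with an unadjusted p under 0.05. TAM signalling and suppression of inflammation had a median of 0.07 over 10 genes, with Pik3r1, the regulatory subunit of PI3 kinase, at 311 ± 10.02 and 325 ± 50.8 CPM, and Nfkbia, the NF-kB inhibitor, at 176 ± 67.0 and 191 ± 39.4 CPM (SD, n = 3 each). Nuclear receptors and their targets after engulfment had a median of -0.15 over 9 genes, with the lipid exporter gene Abcg1 at 4076 ± 673 and 3662 ± 673 CPM and Mylip, an LXR target, at 947 ± 67.7 and 818 ± 107 CPM (SD, n = 3 each). Rxrb, a partner of LXR, had 5.18, 5.73 and 10.5 CPM and then 3.08, 4.70 and 4.16 CPM (edgeR unadjusted p = 0.343).

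LC3-associated phagocytosis, in which autophagy proteins coat the phagosome, had a median of 0.03 over 16 genes. Gabarap had 97.5 ± 8.34 and 97.9 ± 14.4 CPM and Atg5 79.6 ± 17.7 and 90.7 ± 16.2 CPM (SD, n = 3 each). Ligands and partners of TIM-3 had a median of -0.10 over 5 genes, with Hmgb1 at 276 ± 16.2 and 258 ± 47.9 CPM and Ceacam1 at 79.6 ± 7.001 and 83.8 ± 12 CPM (SD, n = 3 each). Of the list of further TAM receptors and ligands, 0 of 4 genes were tested. Tub, a ligand of MERTK, had 1.80, 0 and 0.80 CPM in the mice labelled WT and 0 in all 3 labelled Mll5+/-, and it did not pass the low-count filter.

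**Figure D4:**
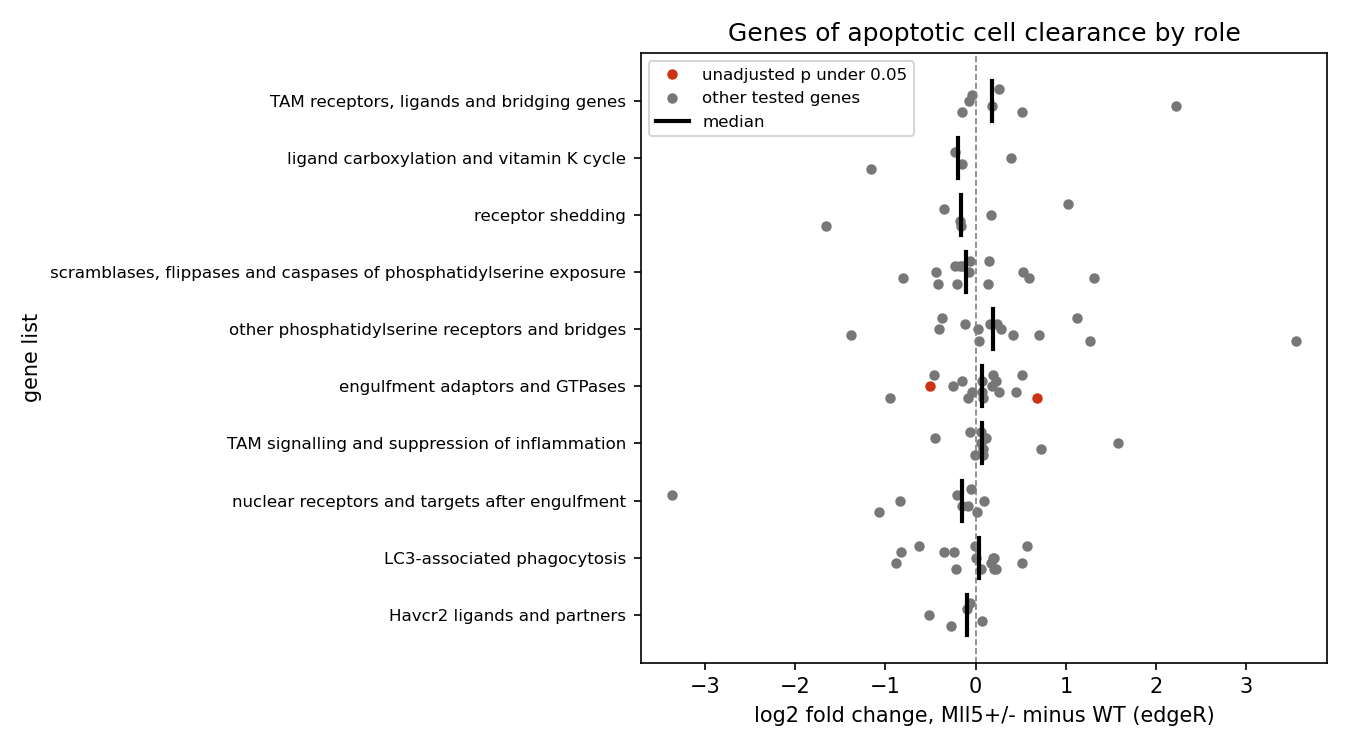
Log2 fold change, Mll5+/- minus WT (x axis), of each tested gene by list (rows); red points have an unadjusted p under 0.05 in edgeR, and the bars are list medians. The medians lie between -0.19 and 0.20, and the 2 red points, Cdc42 and Rac1, lie on opposite sides of 0.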

How the data were processed

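The deposited data are raw integer counts for each gene, with mm39 coordinates. The submitters' processing notes list STAR, StringTie, FastQC and DESeq2 without versions; how reads were counted and with which strand setting: not given in the sources used here. Per the labels' protocols, RNA was TRIzol-extracted and cDNA amplified by SMART-seq. Without molecular identifiers, amplified reads do not stand for separate molecules. No gene of the table overlapped a member's span, but antisense reads of genes outside it cannot be told apart.

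Groups came from the labelled genotype. filterByExpr (minimum count 10, minimum total 15) kept 10832 genes, all 7 analysed members among them, and removed 1049. Counts were TMM-scaled and tested with edgeR 4.0.16 (quasi-likelihood, robust; limma 3.58.1, R 4.3.3; biological coefficient of variation 80.4%), two-sided, with Benjamini-Hochberg adjustment over all tested genes. SEs came from the coefficient and its F statistic. The script was tested on simulated data, in which known folds had to be recovered at a spread far below that of these data. That check does not show which folds could be called at the spread of these data. Alternatives were other scalings and filters, sample-weighted limma-voom, DESeq2 1.42.0, and leaving out each library. The edgeR p-values set the difference between the genotypes against the spread between these libraries within a genotype, moderated over genes.

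The members, the lists and the tests were chosen with earlier results of these data known. Named were all members, Kmt2e, per list the genes with an unadjusted p under 0.05 or else the 2 of highest mean CPM, the markers of highest mean CPM, and the 3 nearest profiles of 2 members. Ager, Cd36, Rxrb, Tub, Tmem119, Gpr34, Cd163, Lyve1, Gja1, Plpp3, Clu, Plac8, S100a9, Camp and Ngp fall outside this rule and were named after their values were seen.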

Additional observations from a re-analysis of the deposited data

How the results depend on the processing

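Under the other scalings, filters and tools and with each library left out, 0 members and 0 of the pathway genes passed the adjusted threshold. Over all genes, DESeq2 called 18 where edgeR called 0, and leaving out 1 library gave between 0 and 2 calls. Of 91 alternative log2 fold changes of the members, 80 kept their direction and 11 reversed, all of genes whose interval includes 0. With limma-voom, Axl was at -0.60, Pros1 at 0.026, Mfge8 at -0.27 and Havcr2 at 0.058, while Xkr8 was at 3.90 against 2.22 in edgeR. Over the left-out libraries, Mertk ran from -0.11 to 0.051, Axl from -0.23 to 3.56, Pros1 from -0.40 to 0.070, Mfge8 from -0.26 to 0.70 and Havcr2 from -0.30 to 0.088, while Gas6 (0.06 to 0.29) and Xkr8 (0.83 to 3.04) kept their sign. The cause of the reversals was not tested. No paired analysis was possible because the labels give no shared replicate numbers. With 3 mice per genotype, the intervals allow up to 1.27-fold for Mertk and up to 44.0-fold for Axl.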
